A study of Oryza sativa with 16 samples.

Results

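The drought response of the Swarna flag leaf was taken as the comparison of 4 Swarna drought libraries with 4 Swarna control libraries, 8 of the 16 flag-leaf libraries in the count table. Swarna is an indica rice variety that the sample labels describe as drought-sensitive and as the recipient parent of an introgression line, DTY-IL, which carries segments of the tolerant donor N22 in a Swarna background. Swarna drought plants were grown 1 to a pot in a greenhouse, had water withheld from the R2 stage until the soil reached 75% of field capacity, were held there for 9 days and were then held at 50% for 3 more days. Swarna control plants were watered throughout, and flag leaves of both groups were frozen at the R3 stage on day 12. The labels describe the 4 libraries of a group as independent biological replicates, and the hour of harvest was not given in the sources used here. The DTY-IL drought and DTY-IL control libraries (4 each) had the same treatments and entered only where the Swarna change was set against that of the introgression line.

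A drying rice leaf makes abscisic acid (ABA), a hormone that closes stomata and switches on protective genes. ABA binds PYR/PYL receptors, which then inhibit clade A protein phosphatases (PP2C) and so release the SAPK protein kinases that act on bZIP transcription factors. Targets of this pathway include dehydrins and other late embryogenesis abundant (LEA) proteins, which protect cell contents as water is lost. The flag leaf is the main source of sugar for the filling panicle, and its mesophyll cells devote much of their mRNA to Rubisco, the light-harvesting antenna and the Calvin cycle. Gene names used here were not in the count table, which holds locus identifiers only. They come from published rice locus nomenclature as recalled, and were kept only for the 237 of 365 listed loci where RefSeq lists a gene of that name on the same chromosome at about the place expected, a check that cannot tell tandem neighbours apart. Counts of list members below cover these named loci. A further 113 tested loci had been listed under names that did not pass the check, and 26 of them rose, 68 fell and 19 did not pass the test.

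Of 55801 loci in the table, 28283 had at least 10 counts over the 16 libraries and were tested. In edgeR's quasi-likelihood test, 9212 of these passed an adjusted p of 0.05 or less together with a fold change of at least 2 (a log2 fold change of 1 or more in size), which is 32.6% of all loci tested. The loci that rose made up 15.2% and those that fell 17.3%, and the median log2 fold change of all loci tested was 0.06. Counts of list members that rose or fell are to be read beside these shares. Large rises were fewer than large falls, with 1193 loci at or above a log2 fold change of 3 and 1694 at or below -3. The loci that fell had a median of 1.37 CPM under drought and 7.59 CPM in control, while the loci that rose had a median of 5.42 CPM under drought and 1.12 CPM in control (CPM are normalised read counts, scaled to TMM-adjusted library sizes). Of the 9212 loci, 8364 (90.8%) had no overlap in CPM between the 4 drought and the 4 control libraries, against 46.8% of all loci tested. Among loci that rose, 291 had no counts in any control library, and among loci that fell, 397 had no counts in any drought library. Scaling to library size alone in place of TMM moved the median log2 fold change of all loci to 0.70, and the loci that rose then made up 74.5% of all calls, against 46.8% with TMM. Changes given below are relative to the TMM scale. Of the named list members, the falls of ZEP, HSP17.9B, PIP1;3 (LOC_Os02g57720), PIP2;1 (LOC_Os07g26690), TIP3;1, PSAH, PETC, LFNR1, GLO1, CHLI, SWEET14, SODCC.1, APX4, ELF3-1, MADS14, JAR1, JAZ10 and LSI1 lost their call on the library size scale, and no rise of a list member did.

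Library totals lay between 14854039 and 17136250 counts under drought and between 16451473 and 18719541 in control, so that 10 counts in a library correspond to less than 1 CPM. Rubisco and antenna genes were among the loci with the most counts in control, the markers taken here for leaf mesophyll. Of 12 floral organ genes, 5 were tested and 1 fell, MADS1 (LOC_Os03g11614), with 0.746 to 1.01 CPM under drought and 5.67 to 9.73 CPM in control. Together the listed floral genes held 0.00137% to 0.00318% of the counts under drought and 0.00154% to 0.00239% in control. MADS5 (LOC_Os06g06750) and MADS13 (LOC_Os12g10540) had no counts in any library. Of 4 genes of dividing or meristem cells 3 were tested and none passed the test, and PCNA (LOC_Os02g56130), a replication clamp, had a log2 fold change of 0.09 ± 0.16 (± after a log2 fold change is its standard error). The root silicon channel LSI1 (LOC_Os02g51110) fell, with 2.63 to 5.82 CPM under drought and 9.31 to 23.5 CPM in control, and would miss the fold threshold on the library size scale. Of 2 seed genes WX (LOC_Os06g04200), the granule-bound starch synthase, fell, with 0.048 to 0.538 CPM under drought and 4.03 to 6.44 CPM in control, and GLUA1 (LOC_Os01g55690), a glutelin, did not pass. Swarna drought replicate 1 stood apart from the other drought libraries at many loci named below (14 of the 32 values far from the rest of their group), and the calls of NAC6, DREB1B, HSFA2C, HSFB1, HSP26.7 (LOC_Os03g14180), HSP17.4, HSP17.7 (LOC_Os03g16040), PIP1;3 and JAZ10 were lost without it. Several of these calls were also lost without another single library, so their loss is not particular to drought replicate 1. HSFB1 was lost without drought replicate 2 or control replicate 1, and HSP26.7 without control replicate 2, 3 or 4. HSP17.4 was lost without control replicate 1, and PIP1;3 without control replicate 1 or 4. DREB1B and JAZ10 are described with their lists. RNA was taken from whole flag leaves, so fewer cells of a type and less RNA per cell cannot be told apart.

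The dehydrins had the highest median change of any list. All 7 tested members of the dehydrin and LEA3 list rose, against 15.2% of all loci tested, with log2 fold changes from 4.73 to 9.86 and a median of 8.68. The 1 other tested locus listed with them, without a checked name, did not pass the test (log2 fold change 0.29). RAB21 (LOC_Os11g26790), the dehydrin also known as RAB16A, had 3133, 2204, 2419 and 2629 CPM in the drought libraries, against 3.03, 2.85, 2.49 and 2.76 CPM in the control libraries. The groups lay far apart without overlap (log2 fold change 9.86 ± 0.46, adjusted p = 4.29e-11). Its tandem neighbour RAB16B (LOC_Os11g26780) had 1109, 1007, 932 and 941 CPM in the drought libraries, against 1.58, 0.633, 2.05 and 1.03 CPM in the control libraries (log2 fold change 9.54 ± 0.46, adjusted p = 4.84e-11). LEA3 (LOC_Os05g46480), which encodes a LEA protein of another family, had 1133, 543, 467 and 837 CPM in the drought libraries, against 1.7, 4.19, 2.2 and 2.52 CPM in the control libraries (log2 fold change 8.14 ± 0.67, adjusted p = 2.12e-08). Replicate 1 was the highest drought library for both RAB21 and LEA3, and the lowest drought library was still far above every control library. DHN1 (LOC_Os02g44870) was already transcribed in control, with 1102 ± 428 CPM under drought and 41.5 ± 13.2 CPM in control (SD, n = 4 each), and rose as well (log2 fold change 4.73 ± 0.42, adjusted p = 4.73e-08). RAB16D (LOC_Os11g26750) had 3 counts over all control libraries, so its change is given as a ratio of pooled counts, 647-fold (counting interval 221 to 3140.4). RAB16C (LOC_Os11g26760) had 68.6 to 137 CPM under drought and 0.126 to 0.316 CPM in control (log2 fold change 8.68 ± 0.53, adjusted p = 5.34e-10). The RAB16 loci lie side by side on chromosome 11 and are similar in sequence, so reads may have been divided among them. Together the 7 loci held 0.613% to 0.884% of all counts in the drought libraries, against 0.00297% to 0.00509% in the control libraries.

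**Figure D1:**
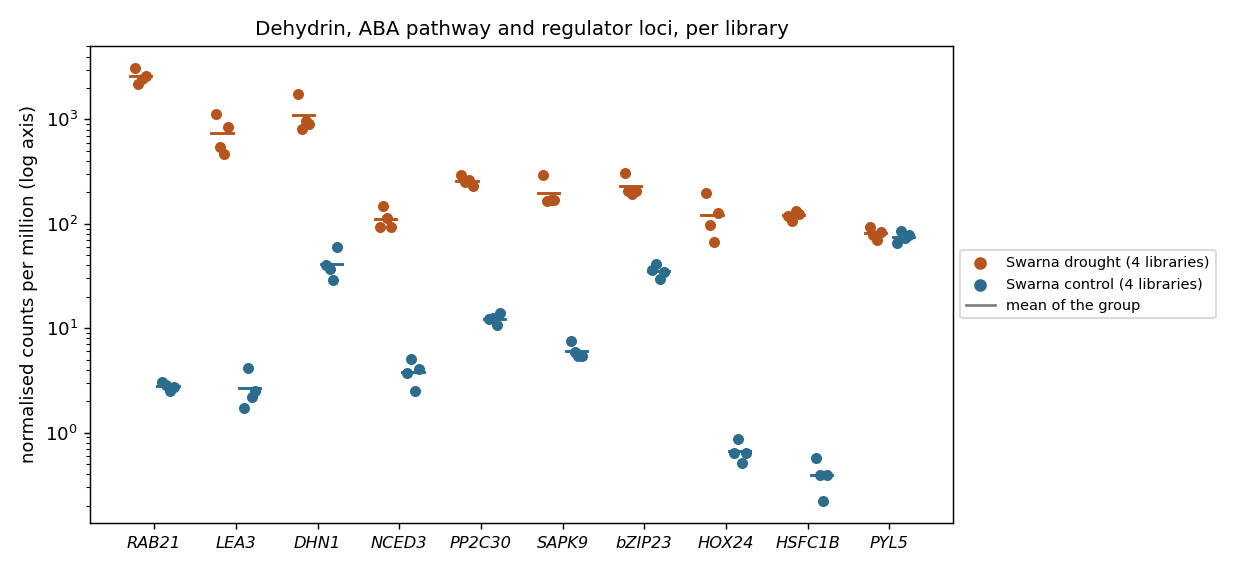
Normalised read counts in CPM (log axis) of 10 loci in the 4 Swarna drought libraries (left, orange) and the 4 Swarna control libraries (right, blue), with a bar at each group's mean. The drought libraries lie above every control library for all loci drawn except PYL5, whose groups overlap.

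Genes of ABA synthesis and breakdown moved in different directions. NCED3 (LOC_Os03g44380), a 9-cis-epoxycarotenoid dioxygenase that catalyses the step committing carotenoids to ABA, had 93.8, 149, 113 and 93.8 CPM in the drought libraries, against 3.72, 5.06, 2.49 and 4.02 CPM in the control libraries. Every drought library was above every control library (log2 fold change 4.88 ± 0.39, adjusted p = 1.37e-08). ZEP (LOC_Os04g37619), zeaxanthin epoxidase, which acts earlier in the pathway, fell (log2 fold change -1.40 ± 0.20, adjusted p = 1.81e-05) and had 349 to 584 CPM under drought and 947 to 1296 CPM in control. It would miss the fold threshold on the library size scale. The ABA 8'-hydroxylases inactivate the hormone, and 2 of the 3 fell. ABA8ox3 (LOC_Os09g28390) had 4.51, 5.04, 7.52 and 4.49 CPM in the drought libraries, against 53.0, 68.6, 58.6 and 76.7 CPM in the control libraries, with no overlap (log2 fold change -3.58 ± 0.27, adjusted p = 7.72e-09). ABA8ox2 (LOC_Os08g36860) fell less (log2 fold change -1.92 ± 0.22, adjusted p = 9.14e-07). ABA8ox1 (LOC_Os02g47470) did not pass the test (log2 fold change 0.94 ± 0.58, adjusted p = 0.192). It had 19.4, 13.6, 11.6 and 12.8 CPM in the drought libraries, against 2.58, 2.37, 2.05 and 23.19 CPM in the control libraries. Only control replicate 4 was above the drought range, and without Swarna control replicate 4 it was higher in drought (log2 fold change 2.61, adjusted p = 6.54e-06).

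Among core ABA signalling genes, 7 of 8 phosphatases and 6 of 10 kinases rose. Of the receptors, the 1 with a checked name did not pass the test, and of 6 tested loci listed as receptors without a checked name 5 fell, with log2 fold changes of -4.92 to -1.23. The clade A PP2C list had 7 of 8 tested members higher in drought and none lower, with a median log2 fold change of 2.54, against 0.06 over all loci. PP2C51 (LOC_Os05g49730) was nearly silent in control, with 4 counts over the 4 libraries, and had 55.1 to 98.7 CPM under drought, a ratio of pooled counts of 1119-fold (counting interval 437 to 4109). PP2C30 (LOC_Os03g16170) had 294, 252, 260.0 and 230.0 CPM in the drought libraries, against 12.4, 12.6, 10.6 and 13.9 CPM in the control libraries (log2 fold change 4.39 ± 0.24, adjusted p = 2.19e-10). Both phosphatases separated the groups completely. PP2C49 (LOC_Os05g38290) and PP2C08 (LOC_Os01g46760) rose by less (log2 fold changes 3.43 ± 0.30 and 2.70 ± 0.23). PP2C53 (LOC_Os05g51510) was the exception, with 37.0 ± 1.51 CPM under drought and 48.7 ± 1.24 CPM in control and a log2 fold change of -0.40 ± 0.12, which missed the fold threshold. Of the 10 SAPK kinases, 6 rose, 4 did not pass the test and none fell, with a median log2 fold change of 1.70. SAPK9 (LOC_Os12g39630) had 294, 166, 169 and 169 CPM in the drought libraries, against 7.56, 5.85, 5.42 and 5.44 CPM in the control libraries (log2 fold change 5.03 ± 0.28, adjusted p = 2.19e-10). SAPK4 (LOC_Os01g64970) had 304 to 456 CPM under drought and 37.0 to 46.9 CPM in control and SAPK6 (LOC_Os02g34600) had 69.5 to 107 CPM under drought and 12.9 to 15.5 CPM in control, with log2 fold changes of 3.06 ± 0.20 and 2.58 ± 0.22. SAPK7 (LOC_Os04g35240) rose as well (log2 fold change 2.28 ± 0.17, adjusted p = 7.64e-09). SAPK1 (LOC_Os03g27280), SAPK2 (LOC_Os07g42940), SAPK5 (LOC_Os04g59450) and SAPK8 (LOC_Os03g55600) had log2 fold changes between -0.53 and 0.51. The receptor PYL5 (LOC_Os05g12260) had 93.8, 78.2, 70.1 and 84.2 CPM in the drought libraries, against 65.4, 85.4, 73.9 and 77.3 CPM in the control libraries. Its groups overlapped (log2 fold change 0.11 ± 0.14, adjusted p = 0.528).

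Among transcription factors with a checked name, both bZIP factors, 1 of 2 stress NAC factors and 2 of 4 HD-Zip class I factors rose. bZIP23 (LOC_Os02g52780), an ABA-responsive bZIP factor, had 307, 207, 194 and 207 CPM in the drought libraries, against 36.1, 41.2, 29.5 and 34.2 CPM in the control libraries (log2 fold change 2.70 ± 0.21, adjusted p = 1.45e-08). TRAB1 (LOC_Os08g36790), a bZIP factor that binds ABA response elements, had 29.6 to 32.7 CPM under drought and 8.54 to 14.1 CPM in control (log2 fold change 1.46 ± 0.20, adjusted p = 1.07e-05). HOX24 (LOC_Os02g43330), an HD-Zip class I factor, had 195, 97.4, 66.6 and 126 CPM in the drought libraries, against 0.63, 0.87, 0.512 and 0.631 CPM in the control libraries (log2 fold change 7.51 ± 0.60, adjusted p = 1.64e-08). It was below 1 CPM in every control library and above 66 CPM in every drought library. HOX22 (LOC_Os04g45810) of the same class rose (log2 fold change 1.81 ± 0.27, adjusted p = 2.38e-05), whereas HOX4 (LOC_Os09g29460) had 36.9 to 73.2 CPM under drought and 84.1 to 128 CPM in control and a log2 fold change of -0.94 ± 0.22, just short of the fold threshold. HOX6 (LOC_Os09g35910) did not pass the test (log2 fold change 0.28 ± 0.18). The NAC factor NAC6 (LOC_Os01g66120) had 844, 394, 368 and 491 CPM in the drought libraries, against 198, 190.0, 229 and 278 CPM in the control libraries (log2 fold change 1.23 ± 0.30, adjusted p = 0.00259). Without drought replicate 1, its log2 fold change was 0.867 and it no longer met the fold threshold. NAC5 (LOC_Os11g08210) did not pass the test (log2 fold change 0.43 ± 0.26). Of 4 tested NAC loci without a checked name, 3 rose and 1 fell. Of 6 DREB factors, which bind the dehydration-responsive element, 2 rose and 3 fell, against 15.2% and 17.3% of all loci tested. DREB2A (LOC_Os01g07120) had 32.6, 15.0, 14.7 and 15.6 CPM in the drought libraries, against 7.31, 5.3, 5.78 and 6.7 CPM in the control libraries (log2 fold change 1.63 ± 0.25, adjusted p = 3.54e-05). Replicate 1 was well above the other drought libraries. DREB2B (LOC_Os05g27930) did not pass the test, with 87.9 to 122 CPM under drought and 84.5 to 92.5 CPM in control. DREB1C (LOC_Os06g03670) rose, with 2.01 to 6.91 CPM under drought and 0 to 0.71 CPM in control. For the 3 falling members, singled out after their values were seen, Swarna control replicate 4 was far above every other Swarna library. DREB1A (LOC_Os09g35030) had 0.24, 0.244, 0.107 and 0 CPM in the drought libraries, against 0.693, 1.27, 1.1 and 12.4 CPM in the control libraries. DREB1B (LOC_Os09g35010) had 15.7 CPM in that control library and at most 0.512 CPM in the other controls, and DREB1G (LOC_Os02g45450) had 8.36 CPM there and at most 0.252 CPM in the other controls. Without control replicate 4 only 1 of the 6 DREB loci fell, and DREB1B and DREB1G had log2 fold changes of -1.03 and -1.80 with adjusted p = 0.581 and 0.199. The DREB1B call was also lost without drought replicate 1, 2 or 3 (adjusted p = 0.0596, 0.051 and 0.0516).

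Heat shock factors moved in both directions. Of 14 tested, 7 rose, 2 fell and 5 did not pass, while 15.2% of all loci tested rose and 17.3% fell. Without drought replicate 1, 5 rose, since HSFA2C (LOC_Os10g28340) and HSFB1 (LOC_Os09g28354) had log2 fold changes of 0.642 and 0.934. HSFC1B (LOC_Os01g53220), a class C factor, had 119, 107, 133 and 123 CPM in the drought libraries, against 0.567, 0.396, 0.22 and 0.394 CPM in the control libraries. The drought libraries were close to each other and far above control (log2 fold change 8.21 ± 0.37, adjusted p = 2.82e-11). HSFC2A (LOC_Os02g13800) of the same class had 42.7 to 49.1 CPM under drought and 6.24 to 8.15 CPM in control (log2 fold change 2.68 ± 0.28, adjusted p = 3.41e-07), and HSFC2B (LOC_Os06g35960) had 19.4 to 34.6 CPM under drought and 0 to 0.394 CPM in control (log2 fold change 6.98 ± 0.51, adjusted p = 5.45e-09). HSFA2A (LOC_Os03g53340) had 56.4, 17.3, 14.4 and 11.4 CPM in the drought libraries, against 0.441, 0.87, 0.439 and 0.394 CPM in the control libraries (log2 fold change 5.53 ± 0.54, adjusted p = 1.72e-07). HSFA2D (LOC_Os03g06630), a class A2 factor too, went the other way. It had 19.7, 6.36, 10.5 and 6.66 CPM in the drought libraries, against 282, 293, 499 and 282 CPM in the control libraries (log2 fold change -4.97 ± 0.45, adjusted p = 6.01e-08). Among 13 small heat shock proteins and HSP101, which keep damaged proteins from aggregating or dissolve the aggregates, 6 rose and 1 fell. HSP18.0 (LOC_Os01g08860) had 55.6, 15.99, 17.2 and 13.6 CPM in the drought libraries, against 2.21, 2.53, 2.85 and 1.89 CPM in the control libraries (log2 fold change 3.43 ± 0.59, adjusted p = 9.78e-05). HSP17.9A (LOC_Os03g15960) had 409, 122, 157 and 156 CPM in the drought libraries, against 44.4, 68.4, 46.0 and 42.8 CPM in the control libraries (log2 fold change 2.06 ± 0.37, adjusted p = 0.000171). HSP17.4 (LOC_Os03g16020) had 106, 3.62, 5.6 and 6.25 CPM in the drought libraries, against 4.16, 4.43, 4.61 and 4.65 CPM in the control libraries (log2 fold change 2.77 ± 0.96, adjusted p = 0.0225). Drought replicate 1 was the highest drought library for all 3. HSP18.6 (LOC_Os02g54140) rose too (log2 fold change 1.96 ± 0.48, adjusted p = 0.00265). Without drought replicate 1, 3 and not 6 members of the list rose, and HSP17.4 had a log2 fold change of 0.172 (adjusted p = 0.85). HSP101 (LOC_Os05g44340), the disaggregase, had 30.2 to 95.6 CPM under drought and 47.8 to 75.1 CPM in control and did not pass the test. HSP17.9B (LOC_Os01g04350) fell (log2 fold change -1.59 ± 0.20, adjusted p = 3.13e-06).

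Photosynthesis genes fell throughout the lists. Every tested member of the photosystem II antenna (3), electron transport and oxygen evolution (4), Calvin cycle (2) and photorespiration (2) lists fell, as did the 1 Rubisco small subunit and the 1 photosystem I subunit with a checked name. Of the tested loci listed with them without a checked name, all 6 of the photosystem II antenna, 8 of electron transport, 8 of photosystem I, 9 of the Calvin cycle and 8 of photorespiration fell, as did 5 of 6 of the photosystem I antenna, while of 4 listed with Rubisco and its activase 3 fell and 1 rose. RBCS-C (LOC_Os12g17600), a Rubisco small subunit, had 342, 695, 1005 and 1522 CPM in the drought libraries, against 14709, 22088, 17079 and 27373 CPM in the control libraries (log2 fold change -4.51 ± 0.44, adjusted p = 1.81e-07). CAB2R (LOC_Os01g41710), a chlorophyll a/b-binding protein of the photosystem II antenna, had 568, 903, 1288 and 859 CPM in the drought libraries, against 9928, 16379.7, 13609.5 and 13404 CPM in the control libraries (log2 fold change -3.88 ± 0.38, adjusted p = 1.85e-07). In both cases even the highest drought library lay far below the lowest control library. The antenna genes RCABP89 (LOC_Os03g39610) and RCABP69 (LOC_Os07g37550) fell by similar amounts (log2 fold changes -3.09 ± 0.25 and -3.21 ± 0.28). PETE (LOC_Os06g01210), plastocyanin, had 409 to 962 CPM under drought and 2104 to 5230.4 CPM in control (log2 fold change -2.29 ± 0.30, adjusted p = 6.46e-06). OEE3 (LOC_Os07g36080), a subunit of the oxygen-evolving complex, had 424 to 725 CPM under drought and 2445 to 3004 CPM in control (log2 fold change -2.19 ± 0.24, adjusted p = 5.57e-07). PETC (LOC_Os07g37030), the Rieske protein of the cytochrome b6f complex, LFNR1 (LOC_Os06g01850), a ferredoxin-NADP reductase, and PSAH (LOC_Os05g48630), a photosystem I subunit, fell by less, with log2 fold changes of -1.41 ± 0.21, -1.28 ± 0.20 and -1.44 ± 0.23. These 3 and GLO1 would miss the fold threshold on the library size scale. Of the Calvin cycle, FBPase (LOC_Os03g16050), fructose-1,6-bisphosphatase, had 57.7, 146, 163 and 160.0 CPM in the drought libraries, against 1187, 1544, 1183 and 1527 CPM in the control libraries (log2 fold change -3.37 ± 0.27, adjusted p = 1.58e-08). RPE (LOC_Os03g07300), ribulose-phosphate 3-epimerase, fell by less (log2 fold change -2.18 ± 0.18, adjusted p = 2.06e-08). Of photorespiration, GDCSH (LOC_Os10g37180), the H protein of glycine decarboxylase, had 55.2 to 197 CPM under drought and 821 to 1142 CPM in control (log2 fold change -2.74 ± 0.32, adjusted p = 1.55e-06). GLO1 (LOC_Os03g57220), glycolate oxidase, had 1250.2 to 1559 CPM under drought and 3562 to 5164 CPM in control (log2 fold change -1.51 ± 0.19, adjusted p = 3e-06).

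**Figure D2:**
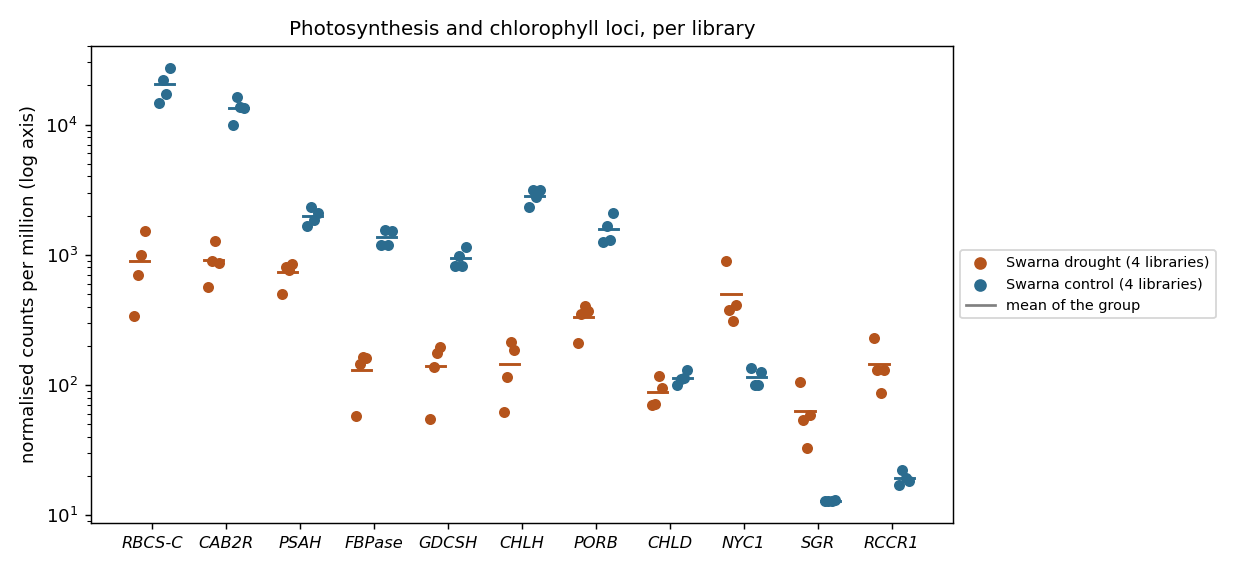
Normalised read counts in CPM (log axis) of 11 photosynthesis and chlorophyll loci in the 4 Swarna drought libraries (left, orange) and the 4 Swarna control libraries (right, blue), with a bar at each group's mean. RBCS-C to PORB lie lower in every drought library than in any control library, CHLD overlaps, and the breakdown genes NYC1, SGR and RCCR1 lie higher in every drought library.

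Chlorophyll synthesis and breakdown genes went opposite ways. Of 8 synthesis genes tested, 6 fell, 2 did not pass and none rose, with a median log2 fold change of -2.03. CHLH (LOC_Os03g20700), the porphyrin-binding subunit of magnesium chelatase, had 61.8, 116, 214 and 185 CPM in the drought libraries, against 2329, 3123, 2779.7 and 3133 CPM in the control libraries (log2 fold change -4.30 ± 0.40, adjusted p = 9.76e-08). The other chelatase subunits differed from it, since CHLI (LOC_Os03g36540) fell (log2 fold change -1.22 ± 0.19, adjusted p = 4.16e-05) and CHLD (LOC_Os03g59640) did not pass the test (log2 fold change -0.36 ± 0.24, adjusted p = 0.226). CAO (LOC_Os10g41780), chlorophyllide a oxygenase, which makes chlorophyll b, had 169, 157, 183 and 162 CPM in the drought libraries, against 1139, 1317, 1243 and 1102 CPM in the control libraries and the smallest standard error of the list (log2 fold change -2.84 ± 0.13, adjusted p = 4.63e-11). PORB (LOC_Os10g35370), a light-dependent protochlorophyllide oxidoreductase, and DVR (LOC_Os03g22780), divinyl reductase, fell too (-2.24 and -2.09 on the log2 scale). CHLG (LOC_Os05g28200), chlorophyll synthase, which acts last, had 27.2 to 51.2 CPM under drought and 31.5 to 37.9 CPM in control. All 4 breakdown genes rose, with a median of 2.20 on the log2 scale. SGR (LOC_Os09g36200), the Stay-Green magnesium dechelatase, had 105, 54.1, 33.1 and 59.1 CPM in the drought libraries, against 12.9, 12.8, 12.9 and 13.1 CPM in the control libraries (log2 fold change 2.28 ± 0.36, adjusted p = 3.66e-05). NYC1 (LOC_Os01g12710), a chlorophyll b reductase, had 891, 374, 308 and 413 CPM in the drought libraries, against 135, 99.9, 99.2 and 127 CPM in the control libraries (log2 fold change 2.11 ± 0.27, adjusted p = 4.36e-06). RCCR1 (LOC_Os10g25030), red chlorophyll catabolite reductase, had 87.2 to 228 CPM under drought and 16.96 to 22.2 CPM in control (log2 fold change 2.91 ± 0.35, adjusted p = 1.83e-06). Replicate 1 had the highest level of all 3 among the drought libraries, and no drought library overlapped control for any of them. NOL (LOC_Os03g45194), a chlorophyll b reductase partner of NYC1, rose as well (log2 fold change 1.72 ± 0.22, adjusted p = 4.32e-06).

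The most abundant mRNAs changed with these genes. The 20 loci with the most counts in Swarna control held 4.67 ± 1.02% of all counts under drought and 22.0 ± 1.68% in control (SD, n = 4 each, a difference of -17.3 percentage points, exact two-sided permutation p = 0.0286, the smallest p that 4 against 4 allows). Those loci were ranked on the control libraries, which favours a fall, and counts also grow with transcript length. With each library's own 20 most abundant loci, an alternative added after seeing the data, the shares were 9.03 ± 0.626% under drought and 22.1 ± 1.75% in control (exact permutation p = 0.0286). All 20 control loci fell. LOC_Os11g47970, the first of them, had 640.2, 927, 1149 and 1186 CPM in the drought libraries, against 46283, 57147, 56443 and 60018 CPM in the control libraries (log2 fold change -5.82 ± 0.30, adjusted p = 9.69e-11), and held 0.122% of the drought counts and 4.36% of the control counts. LOC_Os11g07020, the second, had 434 to 1182 CPM under drought and 23218 to 31619.9 CPM in control. Of the 20 loci with the most counts under drought, 9 rose, 7 fell, and 7 were also among the control 20. LOC_Os07g10840 led them with 6100.5, 9343, 7183 and 6330.0 CPM in the drought libraries, against 87.2, 74.0, 57.2 and 65.7 CPM in the control libraries (log2 fold change 6.67 ± 0.49, adjusted p = 6.1e-09), and RAB21 was among them. The 21 named photosynthesis and chlorophyll synthesis loci together held 0.799% to 1.51% of the counts under drought and 4.95% to 6.54% in control.

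More water channels of the plasma membrane fell than rose. Of 9 tested plasma membrane (PIP) aquaporins, 6 fell and 1 rose, and of 8 tonoplast (TIP) aquaporins, 3 fell and 1 rose. Of all loci tested, 17.3% fell and 15.2% rose. Among the PIP falls, PIP1;3 had overlapping groups and lost its call without drought replicate 1, control replicate 1 or control replicate 4. It also lost the call on the library size scale, as did PIP2;1. The fall of PIP2;5 (LOC_Os07g26660) rested on 2 counts over the drought libraries and 22 over the control libraries. Summed shares of library totals, without TMM scaling, overlapped between the groups. The PIP loci held 0.2026% to 0.2298% under drought and 0.1908% to 0.2293% in control. The TIP loci held 0.1024% to 0.1372% under drought and 0.09527% to 0.1355% in control. PIP1;1 (LOC_Os02g44630) had 256, 254, 267 and 337 CPM in the drought libraries, against 1009, 1022, 822 and 985 CPM in the control libraries (log2 fold change -1.78 ± 0.21, adjusted p = 1.36e-06). PIP2;2 (LOC_Os02g41860) had 26.9, 25.2, 26.2 and 40.0 CPM in the drought libraries, against 255, 232, 187 and 247 CPM in the control libraries (log2 fold change -2.96 ± 0.29, adjusted p = 1.63e-07). The drought levels of both were below every control library. PIP2;4 (LOC_Os07g26630) had 0.0533 to 0.31 CPM under drought and 5.2 to 8.6 CPM in control (log2 fold change -5.42 ± 0.54, adjusted p = 2.14e-07). PIP1;2 (LOC_Os04g47220) did not pass the test, with 846 to 1077 CPM under drought and 677 to 891 CPM in control. PIP2;6 (LOC_Os04g16450) was the PIP that rose, with 80.8 to 123 CPM under drought and 22.8 to 40.7 CPM in control (log2 fold change 1.80 ± 0.30, adjusted p = 8.59e-05). Among the TIP aquaporins of the vacuole, TIP4;1 (LOC_Os05g14240) had 245, 173, 175 and 299 CPM in the drought libraries, against 12.7, 21.8, 11.3 and 10.3 CPM in the control libraries (log2 fold change 3.99 ± 0.33, adjusted p = 2.43e-08). In contrast, TIP4;2 (LOC_Os01g13120) had 0.624, 1.37, 1.44 and 1.5 CPM in the drought libraries, against 27.1, 47.9, 18.59 and 28.2 CPM in the control libraries (log2 fold change -4.62 ± 0.42, adjusted p = 7.83e-08). TIP1;2 (LOC_Os01g74450) fell as well (log2 fold change -1.92 ± 0.39, adjusted p = 0.000452), and TIP3;1 (LOC_Os10g35520) fell by less (log2 fold change -1.30 ± 0.18, adjusted p = 8.82e-06). Similar PIP loci lie next to each other on chromosome 7, where reads may have been divided among them.

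Sugar and osmolyte genes that passed the test mostly rose. SUS4 (LOC_Os03g22120), a sucrose synthase, had 855, 447, 503 and 534 CPM in the drought libraries, against 32.0, 43.5, 26.1 and 22.6 CPM in the control libraries (log2 fold change 4.24 ± 0.27, adjusted p = 8.66e-10). SUS1 (LOC_Os03g28330) rose by less (log2 fold change 1.57 ± 0.36, adjusted p = 0.00132). SPS8 (LOC_Os08g20660), a sucrose-phosphate synthase, had 90.7 to 175 CPM under drought and 37.6 to 53.0 CPM in control (log2 fold change 1.40 ± 0.17, adjusted p = 2.84e-06). Of 8 genes of sucrose synthesis and cleavage, 3 rose and none fell, against 32.6% called of all loci, and of 3 tested loci listed with them without a checked name 1 fell. SPS2 (LOC_Os02g09170) had a log2 fold change of -0.38 ± 0.10. SWEET15 (LOC_Os02g30910), a sugar exporter of the SWEET family, had 16.4 to 46.2 CPM under drought and 5 counts over the 4 control libraries, a ratio of pooled counts of 346-fold (counting interval 148 to 1066). SWEET13 (LOC_Os12g29220) had 124, 125, 122 and 79.4 CPM in the drought libraries, against 24.3, 25.2, 12.5 and 30.1 CPM in the control libraries (log2 fold change 2.29 ± 0.25, adjusted p = 5.39e-07). SWEET4 (LOC_Os02g19820) had 60.1 to 95.7 CPM under drought and 19.5 to 31.2 CPM in control (log2 fold change 1.52 ± 0.22, adjusted p = 1.51e-05). SWEET14 (LOC_Os11g31190) fell (log2 fold change -1.43 ± 0.44, adjusted p = 0.0112), but its groups overlapped and the call was lost without control replicate 2 (log2 fold change -0.846, adjusted p = 0.0876). Of the 8 sucrose transport genes, 3 rose, 1 fell and 4 did not pass. On the library size scale none of the 8 fell and 6 rose, but 74.5% of all calls on that scale were rises. The sucrose transporters SUT1 (LOC_Os03g07480), SUT2 (LOC_Os12g44380) and SUT4 (LOC_Os02g58080) did not pass the test, with log2 fold changes of 0.64 ± 0.28, -0.60 ± 0.18 and 0.39 ± 0.13. Both genes of pyrroline-5-carboxylate synthetase, the first enzyme of proline synthesis, rose. P5CS2 (LOC_Os01g62900) had 763, 447, 418 and 688 CPM in the drought libraries, against 22.4, 29.1, 26.3 and 22.3 CPM in the control libraries (log2 fold change 4.53 ± 0.36, adjusted p = 1.46e-08). P5CS1 (LOC_Os05g38150) had 444, 256, 345 and 360.4 CPM in the drought libraries, against 53.6, 88.0, 64.3 and 66.6 CPM in the control libraries (log2 fold change 2.37 ± 0.24, adjusted p = 3.25e-07). BADH1 (LOC_Os04g39020), a betaine aldehyde dehydrogenase, rose (log2 fold change 1.84 ± 0.16, adjusted p = 4.33e-08), and its homologue BADH2 (LOC_Os08g32870) had 78.8 to 92.1 CPM under drought and 72.2 to 85.7 CPM in control and did not pass.

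Of 14 genes for antioxidant enzymes, 5 rose, 2 fell and 7 did not pass, while 15.2% of all loci tested rose and 17.3% fell. SODCC.2 (LOC_Os07g46990), a cytosolic copper/zinc superoxide dismutase, had 134, 232, 188 and 319 CPM in the drought libraries, against 14.9, 36.6, 42.7 and 34.4 CPM in the control libraries (log2 fold change 2.77 ± 0.35, adjusted p = 3.83e-06). The second gene of this kind, SODCC.1 (LOC_Os03g22810), had 94.1, 87.2, 74.3 and 96.4 CPM in the drought libraries, against 94.4, 202, 227 and 217 CPM in the control libraries and fell (log2 fold change -1.07 ± 0.23, adjusted p = 0.00093). Control replicate 1 lay within the drought range for this gene, and its log2 fold change was -0.960 without control replicate 3 and -0.988 without control replicate 4. The manganese form sodA (LOC_Os05g25850) had 231 to 265 CPM under drought and 56.4 to 74.1 CPM in control (log2 fold change 1.93 ± 0.16, adjusted p = 2.5e-08). The plastid form sodCp (LOC_Os08g44770) had 423 to 597 CPM under drought and 118 to 277 CPM in control (log2 fold change 1.35 ± 0.24, adjusted p = 0.000164). CATB (LOC_Os06g51150), a catalase, had 367, 191, 137 and 273 CPM in the drought libraries, against 59.1, 50.9, 51.7 and 51.7 CPM in the control libraries (log2 fold change 2.18 ± 0.26, adjusted p = 1.66e-06). Among the ascorbate peroxidases APX3 (LOC_Os04g14680) rose (log2 fold change 2.08 ± 0.43, adjusted p = 0.000625) at 2.68 to 12.2 CPM under drought, APX4 (LOC_Os08g43560) fell (log2 fold change -1.17 ± 0.14, adjusted p = 2.5e-06), and the other 6 did not pass. The median log2 fold change of the list was 0.19.

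Nitrogen assimilation split by isoform. All 7 tested genes changed, 5 of them downward, and of 4 tested loci without a checked name 2 rose and 2 fell. GS2 (LOC_Os04g56400), plastid glutamine synthetase, had 261, 404, 531 and 558 CPM in the drought libraries, against 3218, 2972, 3177 and 3711 CPM in the control libraries (log2 fold change -2.90 ± 0.24, adjusted p = 2.46e-08). GS1;2 (LOC_Os03g12290), a cytosolic form, had 1.34, 2.4, 2.19 and 3.1 CPM in the drought libraries, against 58.7, 82.0, 44.4 and 76.5 CPM in the control libraries (log2 fold change -4.86 ± 0.32, adjusted p = 1.42e-09). GS1;1 (LOC_Os02g50240) fell too (log2 fold change -2.36 ± 0.18, adjusted p = 6.94e-09). NIA1 (LOC_Os08g36480), nitrate reductase, had 5.04, 12.3, 8.42 and 9.34 CPM in the drought libraries, against 141, 195, 152 and 209 CPM in the control libraries (log2 fold change -4.31 ± 0.39, adjusted p = 6.59e-08). FD-GOGAT (LOC_Os07g46460), ferredoxin-dependent glutamate synthase, had 713 to 1041 CPM under drought and 4029 to 4811 CPM in control (log2 fold change -2.40 ± 0.25, adjusted p = 4.44e-07). No drought library of these 5 overlapped control. GLT2 (LOC_Os05g48200), a second glutamate synthase, rose, with 1348, 582, 905 and 612 CPM in the drought libraries, against 61.3, 244, 102 and 58.1 CPM in the control libraries (log2 fold change 2.89 ± 0.45, adjusted p = 3.41e-05). GS1;3 (LOC_Os03g50490), a cytosolic glutamine synthetase, rose at a low level, with 1.17 to 3.46 CPM under drought and 4 counts over the control libraries.

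Some clock and flowering genes changed strongly, though none was among the 10 largest fitted rises or falls. Of 8 tested clock genes, 2 rose, 3 fell and 3 did not pass, while 15.2% of all loci tested rose and 17.3% fell. LHY (LOC_Os08g06110), a morning-phased core clock factor, had 7.44, 11.4, 10.9 and 6.4 CPM in the drought libraries, against 1101, 741, 1068 and 773 CPM in the control libraries (log2 fold change -6.67 ± 0.31, adjusted p = 4.38e-11). PCL1 (LOC_Os01g74020), an evening-phased clock factor, had 62.7, 29.9, 23.9 and 40.7 CPM in the drought libraries, against 1.01, 1.5, 0.586 and 0.868 CPM in the control libraries (log2 fold change 5.30 ± 0.32, adjusted p = 5.56e-10). PRR1 (LOC_Os02g40510), the rice counterpart of the evening gene TOC1, had 141, 133, 140.2 and 114 CPM in the drought libraries, against 14.1, 12.2, 12.7 and 22.3 CPM in the control libraries (log2 fold change 3.11 ± 0.20, adjusted p = 1.31e-09). The groups did not overlap for any of the 3. PRR37 (LOC_Os07g49460) and ELF3-1 (LOC_Os06g05060), an evening complex protein, fell (log2 fold change -1.68 ± 0.21, adjusted p = 3.48e-06 and log2 fold change -1.10 ± 0.13, adjusted p = 1.4e-06). PRR73 (LOC_Os03g17570) and PRR95 (LOC_Os09g36220) missed the fold threshold with log2 fold changes of -0.64 ± 0.17 and 0.69 ± 0.16, and GI (LOC_Os01g08700), GIGANTEA, had 1623 to 2304 CPM under drought and 1536 to 1649 CPM in control (log2 fold change 0.22 ± 0.15). Levels of these genes cycle through the day. Since harvest hours were not given, a difference in harvest time between the groups was not tested. Of 6 tested flowering-time genes, 1 rose and 3 fell, against 15.2% and 17.3% of all loci tested. HD3A (LOC_Os06g06320), a florigen gene whose protein moves from leaf to shoot apex to induce flowering, had 0.576, 0.0978, 0.48 and 0.155 CPM in the drought libraries, against 63.1, 66.5, 46.4 and 64.7 CPM in the control libraries (log2 fold change -7.49 ± 0.57, adjusted p = 8.41e-09). It fell to below 1 CPM in every drought library. GHD8 (LOC_Os08g07740), a repressor of flowering in long days, fell at a low level, with 0.096 to 0.587 CPM under drought and 1.42 to 2.29 CPM in control. HD1 (LOC_Os06g16370), a photoperiod regulator of HD3A, rose, with 11.1, 12.6, 9.33 and 18.12 CPM in the drought libraries, against 0.441, 0.791, 0.586 and 0.71 CPM in the control libraries (log2 fold change 4.34 ± 0.29, adjusted p = 1.76e-09). MADS14 (LOC_Os03g54160) had 197 to 263 CPM under drought and 441 to 557 CPM in control and fell (log2 fold change -1.24 ± 0.18, adjusted p = 1.56e-05), but would miss the fold threshold on the library size scale. MADS15 (LOC_Os07g01820) did not pass the test, with 45.6 to 65.4 CPM under drought and 57.4 to 77.5 CPM in control.

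**Figure D3:**
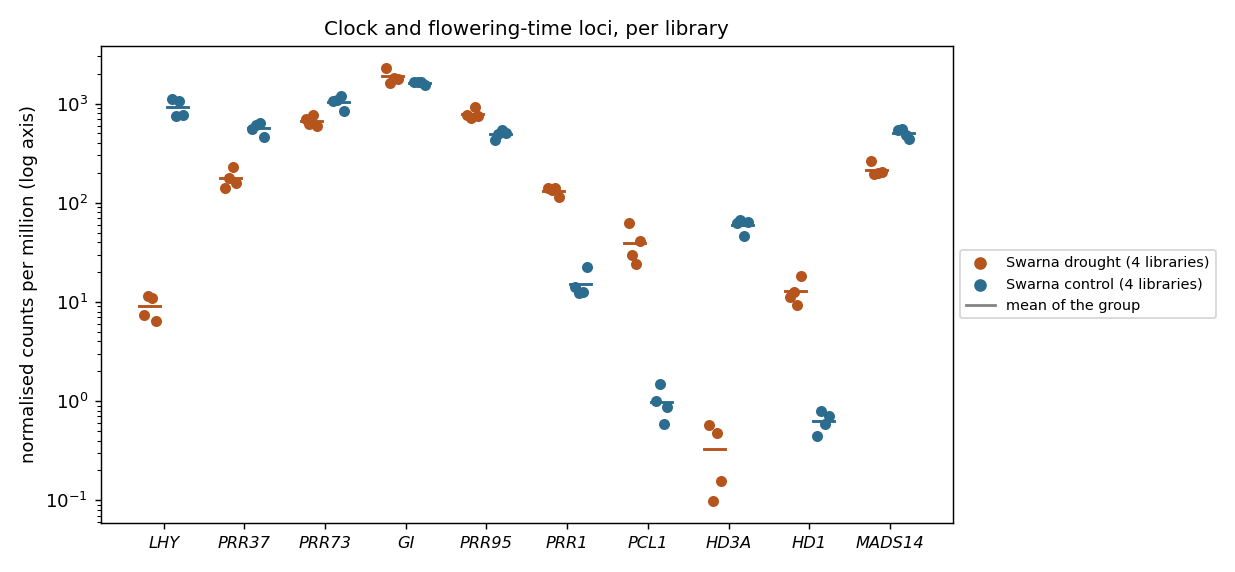
Normalised read counts in CPM (log axis) of 10 clock and flowering-time loci in the 4 Swarna drought libraries (left, orange) and the 4 Swarna control libraries (right, blue), with a bar at each group's mean. LHY and HD3A are lower, and PRR1, PCL1 and HD1 higher, in every drought library than in any control library, and the GI libraries overlap.

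Cell wall genes divided by type. Of 9 cellulose synthase genes, 4 rose and none fell (8 rose on the library size scale), while 15.2% of all loci tested rose and 17.3% fell. CESA4 (LOC_Os01g54620), CESA7 (LOC_Os10g32980) and CESA9 (LOC_Os09g25490), which in rice form the complex of the secondary wall, were at most 1.07 CPM in control. CESA7 had 3.79, 6.31, 15.9 and 13.6 CPM in the drought libraries, against 0.567, 0.475, 0.0732 and 0.631 CPM in the control libraries (log2 fold change 4.47 ± 0.59, adjusted p = 5.87e-06). CESA9 had 3.02, 5.23, 13.1 and 10.5 CPM in the drought libraries, against 0.63, 0.316, 0.293 and 0.552 CPM in the control libraries (log2 fold change 4.11 ± 0.56, adjusted p = 8.58e-06). CESA4 had 5.28 to 11.3 CPM under drought and 0.87 to 1.07 CPM in control (log2 fold change 3.11 ± 0.33, adjusted p = 4.19e-07). Drought replicate 1 had the lowest drought level of all 3. CESA2 (LOC_Os03g59340) had 45.0 to 54.9 CPM under drought and 3.51 to 4.58 CPM in control (log2 fold change 3.67 ± 0.24, adjusted p = 1.31e-09). Expansins, which loosen walls in growing cells, were mostly at a few CPM or less, and 7 of 10 tested fell and 2 rose. The rise of EXPA5 (LOC_Os02g51040) was lost without drought replicate 2, control replicate 2 or control replicate 3 (adjusted p = 0.108, 0.0757 and 0.0804), and the fall of EXPA1 (LOC_Os04g15840) without control replicate 1 (adjusted p = 0.0834). EXPB3 (LOC_Os10g40720) had 4 counts over the drought libraries and 4.25 to 14.5 CPM in control, and was 188-fold (counting interval 72.9 to 692) lower under drought by pooled counts. EXPA10 (LOC_Os04g49410), with 14.2 to 17.8 CPM under drought and 5.99 to 7.98 CPM in control, rose (log2 fold change 1.13 ± 0.14, adjusted p = 2.59e-06).

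In the jasmonate list, 1 of 10 tested genes rose and 4 fell, against 15.2% and 17.3% of all loci tested. The rise, of JAZ11 (LOC_Os03g08320), was lost without drought replicate 4 (log2 fold change 0.970, adjusted p = 0.212). JAR1 (LOC_Os05g50890), which joins jasmonate to isoleucine to give the active hormone, had 25.7, 27.9, 28.2 and 26.02 CPM in the drought libraries, against 61.5, 54.2, 63.6 and 60.2 CPM in the control libraries (log2 fold change -1.15 ± 0.12, adjusted p = 2.39e-07), with no overlap. It would miss the fold threshold on the library size scale. AOC (LOC_Os03g32314), allene oxide cyclase, had 37.8 to 58.4 CPM under drought and 84.6 to 111 CPM in control and a log2 fold change of -0.98 ± 0.13, just under the fold threshold. AOS1 (LOC_Os03g55800), allene oxide synthase, fell (log2 fold change -2.22 ± 0.47, adjusted p = 0.000806) and had 1.15, 1.91, 1.44 and 2.06 CPM in the drought libraries, against 4.79, 3.96, 2.71 and 19.2 CPM in the control libraries. JAZ10 (LOC_Os03g08330), a repressor of jasmonate signalling, had 0.72, 0.782, 0.533 and 3.61 CPM in the drought libraries, against 1.89, 1.98, 1.76 and 26.8 CPM in the control libraries (log2 fold change -2.51 ± 0.93, adjusted p = 0.0327). Control replicate 4 was the highest library for both, and without it JAZ10 had a log2 fold change of -0.41 (adjusted p = 0.692), and 2 genes of the list fell and 2 rose. The JAZ10 call was also lost without drought replicate 1, 2 or 3 (adjusted p = 0.0798, 0.0798 and 0.0813). Of 7 genes of diterpenoid phytoalexins, antimicrobial compounds of rice, 4 fell. CPS2 (LOC_Os02g36210), a copalyl diphosphate synthase, had 0.048, 0, 0.213 and 0.361 CPM in the drought libraries, against 42.4, 87.4, 59.3 and 36.2 CPM in the control libraries. It was 368-fold (counting interval 210.1 to 712) lower under drought by pooled counts. KSL7 (LOC_Os02g36140) of the same chromosome 2 cluster did not pass the fold threshold and was higher, at 200.3 to 274 CPM under drought and 111 to 149 CPM in control. On chromosome 4, CYP99A3 (LOC_Os04g09920) had 3 counts over the drought libraries and 4.16 to 6.80 CPM in control. Of 5 ion transporters, HAK5 (LOC_Os01g70490), a potassium transporter, fell (log2 fold change -2.96 ± 0.41, adjusted p = 1.09e-05), and so did the sodium transporter HKT1;5 (LOC_Os01g20160), which had 2 counts over the drought libraries and 1.76 to 3.56 CPM in control. AKT1 (LOC_Os01g45990), a potassium channel, and HKT1;1 (LOC_Os04g51820) did not pass (log2 fold changes 0.04 ± 0.15 and -0.50 ± 0.38).

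Some of the largest changes belonged to loci without a checked name. LOC_Os06g23350 had 119.7, 211, 191 and 131 CPM in the drought libraries, against 0, 0.237, 0 and 0.0789 CPM in the control libraries. LOC_Os04g33920 had 142, 247, 208 and 257 CPM in the drought libraries, against 0.063, 0.158, 0.366 and 0.0789 CPM in the control libraries. Both were among the 10 largest fitted rises. LOC_Os05g40740, among the 10 largest fitted falls, had 0.048, 0, 0 and 0 CPM in the drought libraries, against 24.2, 31.8, 33.7 and 25.95 CPM in the control libraries. Of the 10 falls, 8 had no counts in any drought library, and a ranking by fitted fold favours such loci. Among other loci that the study text describes, the SnRK3/CIPK3 kinase LOC_Os03g03510 had 129, 52.6, 47.1 and 73.7 CPM in the drought libraries, against 87.1, 75.5, 89.7 and 83.3 CPM in the control libraries and did not pass the test, and the inactive receptor kinase LOC_Os01g66820 fell, with 5 counts over the drought libraries and 1.10 to 1.58 CPM in control. Of the 3 class III peroxidases, LOC_Os07g01370 rose (log2 fold change 1.15 ± 0.45, adjusted p = 0.0394) at 0.336 to 1.39 CPM under drought and 0.315 to 0.554 CPM in control, a call that leaving out any 1 of 5 Swarna libraries removed, and LOC_Os03g13200 and LOC_Os07g48020 did not pass.

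**Figure D4:**
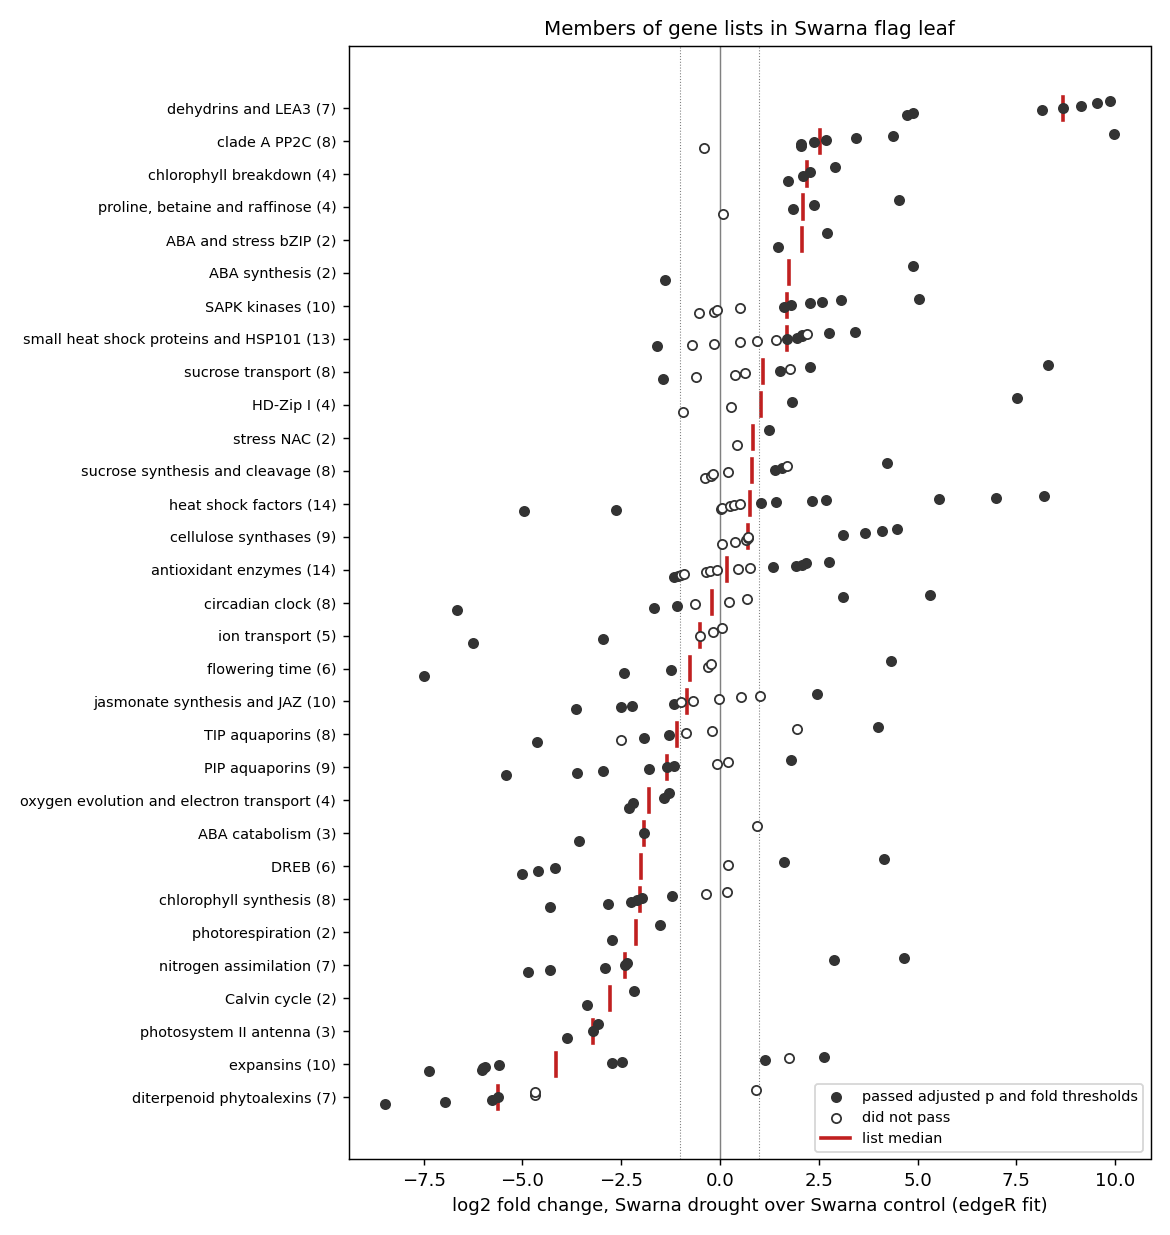
Log2 fold change (Swarna drought over Swarna control) of each tested member of the lists with at least 2 tested members, with the number tested in brackets. Filled points passed the adjusted p and fold thresholds, open points did not, and the red bar is the list median, which runs from 8.68 for dehydrins and LEA3 to -5.62 for diterpenoid phytoalexins.

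The Swarna change was set against that of DTY-IL in the same model. Of the Swarna calls, 5164 were also called in DTY-IL in the same direction, which is 56.1% of the 9212 in Swarna and 77.8% of the 6641 in DTY-IL (23.5% of loci tested), and 58 were called in opposite directions. A test of the difference itself (the interaction of genotype and drought) passed for 1389 loci, 4.91% of those tested, and 1174 of these had the larger absolute change in Swarna. None of the 7 dehydrin and LEA3 loci, 8 clade A PP2C or 10 SAPK loci passed it, whereas 12 of the 21 photosynthesis and chlorophyll synthesis loci did. All 12 had the smaller change in DTY-IL. With 4.91% of all loci passing, no passes among so few loci do not show an equal response. The 7 dehydrin and LEA3 loci held 0.613% to 0.884% of counts in Swarna drought and 0.138% to 0.478% in DTY-IL drought. Their change was smaller in DTY-IL for 4 of the 7, and the difference in summed share was not tested. For CAB2R the log2 fold change was -3.88 ± 0.38 in Swarna and -1.11 ± 0.34 in DTY-IL (difference 2.77, adjusted p = 0.00442). For FBPase it was -3.37 ± 0.27 in Swarna and -1.48 ± 0.25 in DTY-IL (difference 1.89, adjusted p = 0.00584), and for PSAH -1.44 ± 0.23 in Swarna and -0.05 ± 0.23 in DTY-IL (difference 1.39, adjusted p = 0.0169). Both proline genes passed with the larger rise in Swarna, where P5CS2 had 4.53 ± 0.36 and DTY-IL had 2.41 ± 0.33 (difference -2.12, adjusted p = 0.0116). SUS4 rose more in Swarna as well (difference -1.40, adjusted p = 0.02). PIP1;1 fell in Swarna and did not pass the test in DTY-IL (-1.78 ± 0.21 in Swarna and -0.48 ± 0.20 in DTY-IL, difference 1.30, adjusted p = 0.0137). CPS2 fell in both, more deeply in Swarna. Over the 7 tested diterpenoid loci the median log2 fold change was -5.62 in Swarna and 1.09 in DTY-IL. Of these loci, 4 fell in Swarna and none rose, 2 fell and 1 rose in DTY-IL, and 4 passed the interaction test. LHY, PCL1 and PRR1 did not pass the interaction test.

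**Figure D5:**
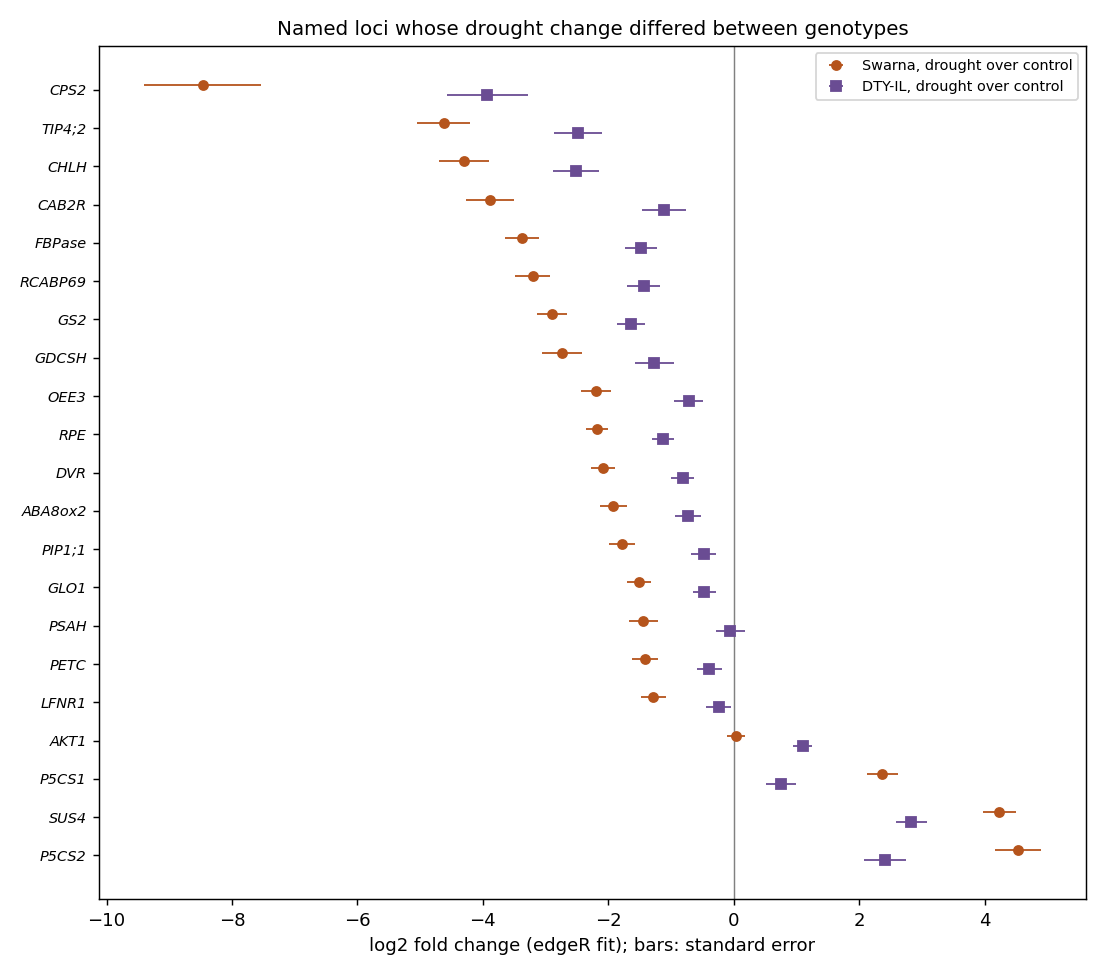
Log2 fold change under drought in Swarna (circles) and in DTY-IL (squares), with standard errors, for the 21 loci named by rule whose change differed between genotypes. Apart from the potassium channel gene AKT1, every locus moved further from 0 in Swarna than in DTY-IL.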

How the data were processed

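RNA from flag leaves was sequenced as 16 libraries, 4 per genotype and treatment. Per the labels and methods, reads were trimmed with Trimmomatic, quantified with Salmon (0.7.2) against transcripts of the MSU annotation extracted with Cufflinks (2.2.1), and summed per locus. The deposited table holds these expected counts (estimated counts per locus, not normalized), which were rounded to whole numbers here. The authors' 4 tables of log2 fold changes and p-values hold their own comparisons and were not used.

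Loci with at least 10 counts over all libraries were fitted in 1 model of 4 groups with edgeR (4.0.16, R 4.3.3, TMM scaling, quasi-likelihood F-test, Benjamini-Hochberg adjustment over all loci tested). Calls were loci whose adjusted p was 0.05 or less and whose log2 fold change was 1 or more in size. Standard errors are the absolute log2 fold change divided by the square root of F. CPM uses TMM-scaled library sizes. For loci with 1 to 20 counts in their lower group, ratios of pooled counts carry exact 95% intervals that cover counting error only. On simulated data for the Swarna comparison, 192 of 200 loci changed at a log2 fold of 2 were recovered with 5 false calls among 27811 loci. The changed loci were few, equally split between rises and falls, and all had a mean of at least 50 counts. The simulation thus held no broad shift between groups like that of the real libraries, and it gives no error rate for the real comparison. Shares of counts were compared by exact two-sided permutation. Replicates differed by more than sampling noise in every pair. Alternatives were DESeq2 (1.42.0), limma-voom (3.58.1), other scalings, filters and thresholds, a replicate block, and leaving out each library.

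The gene lists and the loci followed were chosen with earlier results of these data known. Named loci were those the study text describes, up to 4 members per list with the largest absolute change and a mean of at least 50 counts, the 10 largest rises and falls, and the 20 loci with the most counts per group. Further members are named to account for a list, the other loci of these rankings are given as counts, and 1 gene is not reported here. Gene names were recalled from published rice nomenclature and checked for chromosome and relative place against RefSeq (ASM3414082v1), another assembly than that of the counts (IRGSP-1.0), so no coordinates or sequences are given. Of 250 names found on the same chromosome, 237 lay within 1.5 Mb of the expected place with no RefSeq gene used more than once (239 at 2 Mb, 241 at 3 Mb). How that place is estimated was changed after the deviations had been seen, and the one-gene rule and the final tolerance were settled after expression values had been seen.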

Additional observations from a re-analysis of the deposited data

Results flagged for a closer look

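Among 232 groups of 4 libraries of named loci, 32 (13.8%) had a library far from the rest by Dixon's criterion. The criterion flags about 1 in 20 groups when values are independent and normally distributed. CPM of loci that share the same libraries need not be either, so an excess over chance was not tested. Swarna drought replicate 1 supplied 14 of these and Swarna control replicate 4 supplied 7. The 7 include DREB1A, DREB1B and DREB1G, which were singled out after their values were seen because control replicate 4 stood apart there. Their flags were therefore not open to chance, and the counts above include them.

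In drought replicate 1 the value stood apart for SAPK9 (294 CPM), bZIP23 (307 CPM), DREB2A (32.6 CPM), HSFA2A (56.4 CPM), HSP18.0 (55.6 CPM), HSP17.9A (409 CPM), HSP17.4 (106 CPM), HSP18.6 (106 CPM), SPS8 (175 CPM), ZEP (584 CPM), MADS14 (263 CPM) and MADS1 (1.01 CPM), all above the other drought libraries. It stood below them for TIP4;2 (0.624 CPM) and FBPase (57.7 CPM). The heat shock members followed this library most, and their count of rises without it is given with that list.

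In control replicate 4 the value stood above the other controls for ABA8ox1 (23.19 CPM), AOS1 (19.2 CPM), JAZ10 (26.8 CPM), DREB1A (12.4 CPM), DREB1B (15.7 CPM), DREB1G (8.36 CPM) and LFNR1 (1326 CPM). In drought replicate 4, PIP1;1 (337 CPM), PIP2;2 (40.0 CPM) and JAZ10 (3.61 CPM) were high and SWEET13 (79.4 CPM) was low, and in drought replicate 3 HOX22 (157 CPM) was low. In control replicate 2, HSFA2A (0.87 CPM), HSP17.9A (68.4 CPM) and GLO1 (5164 CPM) were high. In control replicate 3, HSFA2D (499 CPM) was high and HD3A (46.4 CPM) low, and in control replicate 1 CATB (59.1 CPM) was high.

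The change under drought differed between the genotypes at 24 named loci by the interaction test of edgeR's quasi-likelihood fit, with differences given as DTY-IL minus Swarna on the log2 scale. Among photosynthesis and chlorophyll loci the differences were 2.77 for CAB2R, 1.77 for RCABP69, 1.39 for PSAH, 1.47 for OEE3, 1.02 for PETC, 1.04 for LFNR1, 1.89 for FBPase, 1.05 for RPE, 1.04 for GLO1, 1.48 for GDCSH, 1.78 for CHLH and 1.27 for DVR. They were 1.30 for PIP1;1, 2.14 for TIP4;2, 1.26 for GS2, 1.19 for ABA8ox2 and 4.54 for CPS2, each with the smaller fall in DTY-IL, and 1.06 for AKT1, which passed the drought test in DTY-IL and not in Swarna. For SUS4, P5CS1 and P5CS2 they were -1.40, -1.61 and -2.12, with the larger rise in Swarna. The differences for DREB1A (5.58), DREB1B (7.13) and DREB1G (6.37) include the high values of Swarna control replicate 4, and DREB1B was also high in 1 DTY-IL drought library (14.5 CPM, with a minimum of 0 CPM in that group).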

How the results depend on the processing

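Of 116 named loci, 100 were called and 95 had the same call in every alternative other than adjusted p alone and the test against a minimum fold (glmTreat). No called result reversed direction under these alternatives. With adjusted p alone 13994 loci were called (7189 higher in drought), and glmTreat called 5883 (2576 higher), or 105 for the interaction. Library size alone gave 9040 higher and 3095 lower, a split of 74.5% higher against 46.8%. Leaving out 1 library moved the share difference of the most abundant loci between -18.2 and -16.71 percentage points, at exact permutation p = 0.0571, the smallest p that 3 against 4 allows. Same-numbered drought and control libraries had deviations correlated at 0.116, 0.045, 0.126 and 0.043 by title number. By description number the values were 0.116, -0.109 and -0.066. The study text describes pots in a randomized complete block design, and whether either number marks a block was not tested. So few correlations cannot decide whether the libraries were paired, and the main model left blocks out. With a replicate block, 9041 loci were called by title number (4220 higher and 4821 lower; interaction 1359) and 8549 by description number (4043 higher and 4506 lower; interaction 1312). Over all alternatives, 55 of 1904 list counts moved. Under 1 CPM a fold change rests on few counts, and exact zeros give no bound on a fitted fold. Harvest hour, and divided reads among similar neighbouring loci, limit the clock and multigene results.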
